A study of Homo sapiens with 6 samples.

Results

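The mRNAs of 8 hepatocyte transcription factors were followed in RNA immunoprecipitation sequencing (RIP-seq) of HepG2, a human hepatocellular carcinoma cell line. They are HNF4A, NR1H4, PROX1, FOXA1, FOXA2, FOXA3, CEBPA and CEBPB. They were chosen by symbol, each is listed once in both deposited tables, and they make up 8 of the 58302 genes listed. RIP-seq counts the RNA that comes down with an antibody on beads, here an antibody against PABPC1 or against PABPC4, and the title of the series is about PABPC4 in MYC-driven hepatocellular carcinoma. The PABPC1 RIP has 2 libraries from HepG2 cells overexpressing PABPC1, the PABPC4 RIP has 2 libraries from HepG2 cells overexpressing PABPC4, and rabbit IgG has 2 control libraries, 1 from each of these overexpressing populations. No library came from cells without an overexpressed protein. The labels do not say that replicates came from separate cultures, so their spread may be technical.

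Hepatocyte transcription factors switch on, in combination, the secreted proteins, the metabolic enzymes and the bile acid genes of the liver cell. HNF4A and NR1H4 are nuclear receptors, PROX1 is a homeobox protein, the FOXA proteins are forkhead pioneer factors that open chromatin, and CEBPA and CEBPB are basic leucine zipper proteins. What was measured here is their mRNA and not the proteins. Cytoplasmic poly(A)-binding proteins such as PABPC1 and PABPC4 coat the poly(A) tail of mRNAs and act in their translation and turnover, so most polyadenylated mRNAs are potential partners.

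The deposited tables hold a fold and p-values for each RIP against IgG, and read counts per library were recovered from them for 15093 of the 22607 genes with a p, the 8 members included. Since neither the replicate number nor, for IgG, the cell population of a recovered library is known, libraries are called A and B within an antibody. The 2 IgG libraries were pooled by the authors and serve both comparisons, which therefore share their control. Depth was 94235 and 133030 reads in the IgG libraries, 277552 and 289217 in the PABPC1 libraries, and 841327 and 850190 in the PABPC4 libraries, which is shallow for single transcription factors. Nuclear-encoded genes with recovered reads took 39.7% of the IgG reads, 56.0% of the PABPC1 reads and 78.2% of the PABPC4 reads. The rest holds the mitochondrial genes and 2 nuclear-encoded RNAs whose reads were not recovered, MALAT1 and RN7SL2. A gene that kept its share of these nuclear reads therefore has a fold over IgG of 1.41 in PABPC1 and of 1.97 in PABPC4 when values are scaled to library totals, as the deposited folds are. All 8 hepatocyte markers had reads in both RIPs, and 7 of them also had reads in IgG. Markers of blood cells (6 genes, HBB, LYZ and PTPRC among them) summed to 3495 and 3587 RPM (the reads-per-million value of a library) in the IgG libraries, to 1224 and 1380 in PABPC1 and to 693 and 547 in PABPC4, and no gene of that list was at 0. Fibroblast markers (4 genes) summed to 210 and 159 RPM in IgG, 48.4 and 36.0 in PABPC1 and 22.3 and 13.1 in PABPC4. Whether these differences have a part in the members' folds was not tested. The mRNA of PABPC1 itself was at 595 and 634 RPM in the PABPC1 RIP, 590 and 676 in the PABPC4 RIP and 286 and 318 in IgG. That of PABPC4 was at 111 and 155 in the PABPC1 RIP, 162 and 183 in the PABPC4 RIP and 75.2 and 42.4 in IgG.

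Together the 8 mRNAs held 311 PABPC1 reads, 1338 PABPC4 reads and 89 IgG reads, or 549, 791 and 392 RPM. Levels between genes are compared as RPKM, the RPM divided by the counted length in kilobases, with the length that the deposited folds imply, from 1956 nucleotides for CEBPB to 8928 for PROX1. In the IgG libraries CEBPB was the highest at 32.8 ± 7.99 RPKM (SD, n = 2), with HNF4A at 22.2 ± 0.600. FOXA2 at 11.3 ± 4.44, FOXA1 at 10 ± 0.863 and FOXA3 at 8.27 ± 2.0 overlapped from one library to another. PROX1 at 5.75 ± 1.40 and NR1H4 at 4.79 ± 2.44 were close to each other, and CEBPA was the lowest at 1.43 ± 2.02. The order was different in the PABPC4 RIP. HNF4A led it at 37.7 ± 0.737 RPKM, then came CEBPB at 33.6 ± 0.676, NR1H4 at 30.6 ± 0.468 and PROX1 at 24.6 ± 0.754. The libraries of these 4 mRNAs did not overlap in level, whereas those of FOXA1 at 16.5 ± 0.332 and FOXA2 at 15.7 ± 4.06 did. FOXA3 at 4.58 ± 0.347 and CEBPA at 2.93 ± 1.61 were the lowest. In the PABPC1 RIP HNF4A was again first at 27.1 ± 1.47 RPKM. NR1H4 at 20.1 ± 11.4, PROX1 at 16.7 ± 4.40, CEBPB at 16.2 ± 2.08, FOXA1 at 12.9 ± 6.02 and FOXA2 at 12.2 ± 1.56 each overlapped its neighbours in this order, and the higher NR1H4 library reached the level of HNF4A. CEBPA at 5.39 ± 2.05 and FOXA3 at 2.47 ± 3.49 closed the order.

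**Figure D1:**
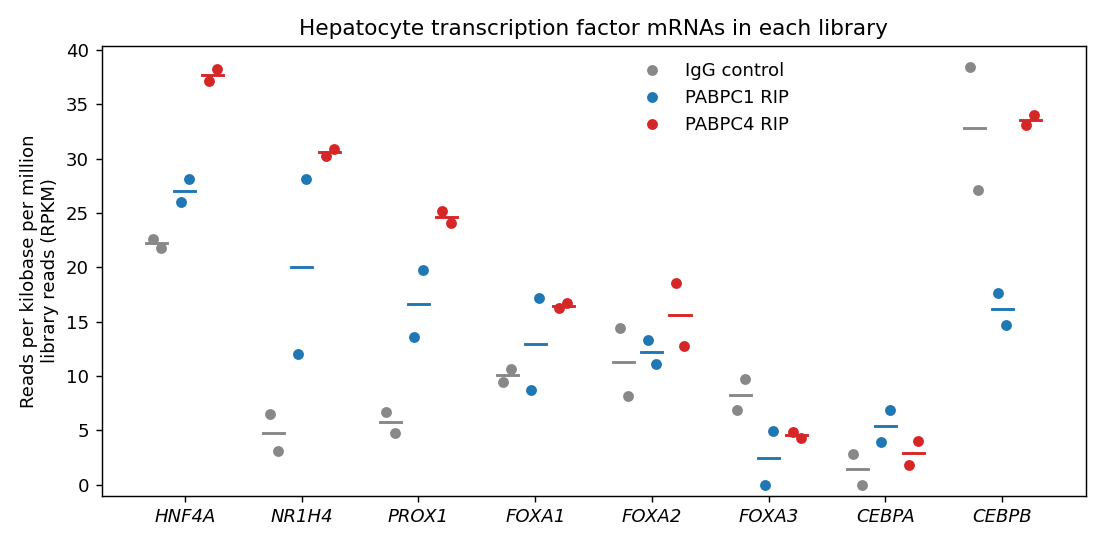
Level of each mRNA, in RPKM, in every library of the IgG control (grey), the PABPC1 RIP (blue) and the PABPC4 RIP (red). Points are libraries (2 per group) and bars their means; NR1H4 and PROX1 lie at 3.07 to 6.74 in IgG and at 24.1 to 30.9 in PABPC4, while CEBPB is at 27.1 and 38.4 in IgG and at 14.7 and 17.7 in PABPC1.

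For each RIP against IgG, a gene was called where the adjusted p (Benjamini-Hochberg) in the authors' deposited table was under 0.05. That p comes from a chi-square test on the reads summed over libraries, so it covers counting error and not the spread between libraries. Of the genes tested in the PABPC1 table, 1.34% were called higher than IgG and 0.194% lower, and of those tested for PABPC4, 5.54% were called higher and 0.9% lower. Of the 8 members, 1 was called higher in the PABPC1 table (PROX1) and 3 in the PABPC4 table (PROX1, NR1H4 and HNF4A), and 0 were called lower in either. The median log2 fold of the members in summed reads was 0.32 for PABPC1, against 0.54 over the 7118 genes with at least 10 summed reads and reads on both sides, and 3 members lay above that median. For PABPC4 it was 0.74, against 0.87 over 9815 genes, and 2 members lay above. The members' median was below that over all genes in both RIPs, and the calls rest on single members. It covers all members, although FOXA3 and CEBPA had fewer than 10 summed reads in the PABPC1 comparison.

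HNF4A, the nuclear receptor that maintains hepatocyte identity, had the most reads of the 8. It is ENSG00000101076 at chr20:44355699-44434596 (GRCh38, RefSeq). Its IgG level was 165 and 159 RPM in libraries A and B, its PABPC1 level 190 and 205, and its PABPC4 level 272 and 279. The 3 groups did not overlap, with IgG lowest and PABPC4 highest. In the authors' deposited table its fold was 1.70 in PABPC4 with an adjusted p of 0.0378, and the exact 95% interval from the 466 PABPC4 and 37 IgG reads was 1.21 to 2.43. That fold is below the 1.97 of the nuclear-encoded reads as a whole. In PABPC1 the fold in the authors' deposited table was 1.22 with an adjusted p of 1, and the interval of 0.830 to 1.81 includes 1. With 37 IgG reads, a call needed a fold of at least 1.85 in PABPC1 and 1.67 in PABPC4, so the PABPC4 value stood just past the limit. The PABPC4 call held with either PABPC4 library left out, at log2 folds of 0.78 without A and 0.74 without B. Without IgG library A the adjusted p for PABPC4 was 0.515, and without IgG library B it was 0.243 (same chi-square test).

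NR1H4, the farnesoid X receptor that senses bile acids, had the largest fold over IgG in both RIPs. It is ENSG00000012504 at chr12:100473866-100564414. Its IgG libraries held 3 and 1 reads, or 22.6 and 10.6 RPM. The PABPC1 libraries held 12 and 27 reads (41.5 and 97.3 RPM) and the PABPC4 libraries 89 and 90 (105 and 107 RPM). Every RIP library was above both IgG libraries, and the PABPC4 libraries were nearly equal to each other. Within PABPC1, library A was at 0.427 times library B (exact 95% interval 0.197 to 0.871), the only member whose interval between libraries of a group excluded 1. The fold in PABPC4 was 6.38 in the authors' deposited table with an adjusted p of 0.00241, and its interval was 2.31 to 22.3. In PABPC1 it was 4.18 in the authors' deposited table (adjusted p 0.278), with an interval of 1.41 to 15.1. At 4 IgG reads a call in PABPC1 needed 52 reads and a fold of 5.21, so the PABPC1 value could not have passed at its size. The PABPC4 call held with either PABPC4 library left out, at log2 folds of 2.60 without A and 2.57 without B. It was lost with either IgG library left out. Log2 folds with a library left out are of summed reads, whereas the starting values of 2.67 and 2.06 below are the deposited ones. In summed reads of all libraries the fold was 6.01 in PABPC4 and 3.91 in PABPC1, not 6.38 and 4.18. Part of each change below is therefore that switch of measure. In PABPC4 the log2 fold of 2.67 became 3.32 without IgG library A (adjusted p 0.157) and 2.23 without IgG library B (0.0846), so the call was lost once at a larger and once at a smaller fold, with fewer IgG reads each time. In PABPC1 the log2 fold of 2.06 became 2.47 without PABPC1 library A (adjusted p 0.0358). It became 1.24 when PABPC1 library B was left out, 2.7 when IgG library A was and 1.61 when IgG library B was, with an adjusted p of 1 in each.

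PROX1, a homeobox factor of liver development that also restrains nuclear receptors, was called in both RIPs. It is ENSG00000117707 at chr1:213983151-214041510. Its level was 60.1 and 42.4 RPM in IgG, 121 and 177 in PABPC1, and 225 and 215 in PABPC4. No groups overlapped, and the order was IgG, PABPC1, PABPC4. The fold in PABPC4 was 4.28 in the authors' deposited table (adjusted p 1.06e-05), with an interval of 2.36 to 8.13. The fold in PABPC1 was 2.90 in the authors' deposited table (adjusted p 0.0479), with an interval of 1.53 to 5.65. The 84 PABPC1 reads were exactly the fewest that pass against 12 IgG reads. The PABPC4 call held without any 1 of its 4 libraries, with a highest adjusted p of 0.0161. The PABPC1 call was lost without PABPC1 library B (adjusted p 0.440), without IgG library A (0.809) and without IgG library B (0.583), and held without PABPC1 library A (0.0105).

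A test that uses the spread between libraries was also run with limma on the recovered reads, scaled to library totals. It was chosen after the data were seen and called 4.59% of 7977 genes higher in PABPC1 and 28.6% higher in PABPC4. For PABPC4 it gave PROX1 a log2 fold of 1.96 (adjusted p 0.000566), NR1H4 2.35 (0.00371) and HNF4A 0.72 (0.0310), so the same 3 members passed. For PABPC1 it gave PROX1 1.38 (adjusted p 0.0592) and NR1H4 1.63 (0.138), and 0 of the 6 members fitted passed, with 3 at an unadjusted p under 0.05. The third of these was CEBPB, at a log2 fold of -1.06 (adjusted p 0.206). The IgG libraries formed a single group in the fit, although each came from a different overexpressing population. Their spread may therefore hold a difference between populations, also where it is given as SD.

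The FOXA mRNAs encode forkhead proteins that bind liver enhancers ahead of other factors. FOXA1 (ENSG00000129514, chr14:37589552-37595249) had 37.6 and 42.4 RPM in IgG, 34.6 and 68.5 in PABPC1, and 64.7 and 66.6 in PABPC4. Its PABPC4 libraries were above both IgG libraries, while its PABPC1 libraries lay on either side of them. The fold in PABPC4 was 1.64 in the authors' deposited table (adjusted p 0.820), with an interval of 0.842 to 3.72, and that in PABPC1 was 1.29, with 0.595 to 3.10. FOXA2 (ENSG00000125798, chr20:22580998-22585490) had 37.6 and 21.2 RPM in IgG, 34.6 and 28.8 in PABPC1, and 48.2 and 33.3 in PABPC4. All 3 groups overlapped. Its folds in the authors' deposited table were 1.08 in PABPC1 and 1.39 in PABPC4, with intervals of 0.411 to 2.92 and 0.610 to 3.42. FOXA3 (ENSG00000170608, chr19:45864326-45873797) was counted only 4 times in IgG, 3 times in PABPC1 and 17 times in PABPC4. Its levels were 15.0 and 21.2 RPM in IgG, 0 and 10.8 in PABPC1, and 10.6 and 9.51 in PABPC4, so all RIP libraries lay below both IgG libraries. The folds of 0.298 and 0.554 in the authors' deposited table had intervals that include 1 (0.0441 to 1.78 and 0.186 to 2.33). At these depths a call in PABPC4 needed a fold of 2.73 for FOXA1, 3.09 for FOXA2 and 4.23 for FOXA3.

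CEBPA and CEBPB are intronless genes whose basic leucine zipper products act in hepatocyte differentiation and, for CEBPB, in the acute-phase response. CEBPA (ENSG00000245848, chr19:33299934-33302534) held 1 and 0 reads in the IgG libraries, 3 and 5 in PABPC1, and 4 and 9 in PABPC4. Its folds of 3.76 and 2.04 in the authors' deposited table rest on that 1 IgG read, and their intervals of 0.430 to 142 and 0.262 to 74.2 leave the direction unsettled. CEBPB (ENSG00000172216, chr20:50190583-50192690) had 75.2 and 53.1 RPM in IgG, 34.6 and 28.8 in PABPC1, and 64.7 and 66.6 in PABPC4. Both PABPC1 libraries were below every other library, and both PABPC4 libraries lay between the IgG libraries. The PABPC1 fold was 0.494 in the authors' deposited table (p 0.0516, adjusted p 0.725), with an interval of 0.229 to 1.03. The PABPC4 fold was 1.02 in the authors' deposited table (adjusted p 1), with an interval of 0.577 to 1.84. That interval is too wide to settle whether CEBPB was depleted or enriched in the PABPC4 RIP on this scale.

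**Figure D2:**
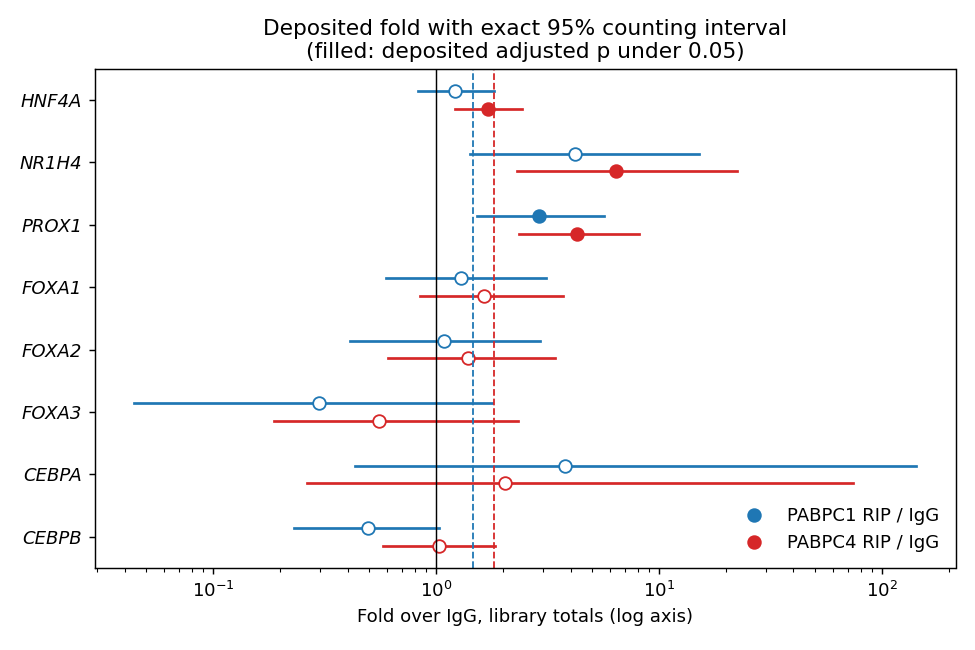
Deposited fold over IgG of each mRNA on a log axis, for PABPC1 (blue) and PABPC4 (red), with the exact 95% interval from summed reads, which covers counting error only; filled points have a deposited adjusted p under 0.05 and dashed lines mark the medians over all genes with at least 10 summed reads and reads on both sides. PROX1 is filled in both RIPs, NR1H4 and HNF4A in PABPC4, and the PABPC1 interval of CEBPB ends at 1.03.

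Because this nuclear share of reads differed between antibodies, the direction of several members depended on the scale. With totals over nuclear-encoded genes, HNF4A had a fold of 0.861 in PABPC1 and 0.860 in PABPC4, and with median-of-ratios size factors 0.788 and 0.746. FOXA1 fell below 1 in the same way (0.917 and 0.842 with nuclear totals), as did FOXA2 (0.732 and 0.673). NR1H4 stayed above 1 with nuclear totals (2.77 in PABPC1 and 3.06 in PABPC4) and with median-of-ratios scaling (2.54 and 2.65). PROX1 did so too, at 1.99 and 2.12 with nuclear totals and at 1.82 and 1.84 with median-of-ratios scaling. These were the only 2 members above 1 in both RIPs under all 3 scalings, but the chi-square test called 0 members under nuclear totals or median-of-ratios scaling. With nuclear totals that test called 0.148% of all genes higher and 0.45% lower in PABPC1, and 0.513% higher and 2.1% lower in PABPC4. With median-of-ratios scaling it called 0.0968% higher and 0.615% lower in PABPC1, and 0.289% higher and 3.11% lower in PABPC4. CEBPB was below 1 in both RIPs with nuclear totals, at 0.341 in PABPC1 and 0.505 in PABPC4. In limma with median-of-ratios scaling, which called 4.66% of genes lower in PABPC4 than in IgG, CEBPB was lower in PABPC4 by a log2 fold of -1.25 ± 0.38 (SE, adjusted p 0.0450). That call was lost in limma with nuclear totals, at a log2 fold of -1.06 (adjusted p 0.118). For PABPC1 its log2 fold was -1.68 ± 0.48 in that fit (adjusted p 0.0736). FOXA3 was below 1 and CEBPA above 1 in PABPC1 under all 3 scalings. In PABPC4 CEBPA changed side, at 0.888 with nuclear totals.

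**Figure D3:**
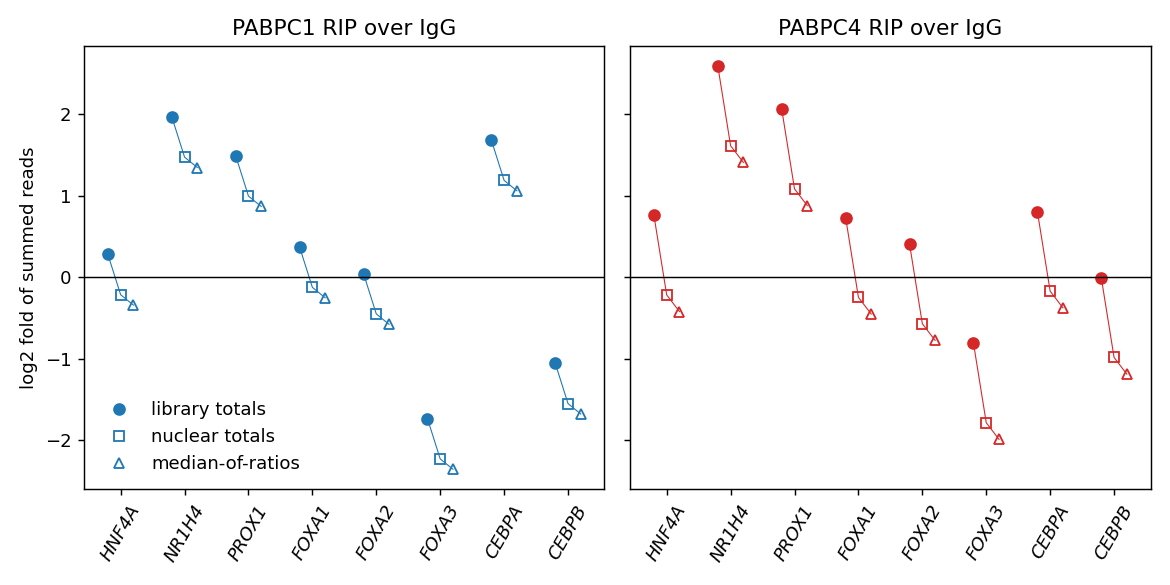
log2 fold over IgG in summed reads for PABPC1 (left) and PABPC4 (right) under 3 scalings: library totals (circles), totals over nuclear-encoded genes (squares) and median-of-ratios size factors (triangles). Each scaling moves all members of a panel by the same amount; NR1H4 and PROX1 stay above 0 throughout, and HNF4A, FOXA1 and FOXA2 cross it in both panels.

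The ratio of one member's fold to another's does not depend on the scaling. There are 28 pairs of members per comparison, with exact 95% counting intervals and no adjustment for their number. In PABPC4 against IgG, 8 pairs had an interval that excludes 1, and each had NR1H4 or PROX1 as the more enriched mRNA. NR1H4 was enriched 3.55 times as much as HNF4A (1.25 to 13.9), 4.54 times as much as FOXA2 (1.11 to 21.7), 6.05 times as much as CEBPB (1.85 to 25.5) and 10.5 times as much as FOXA3 (1.75 to 60.6). PROX1 was enriched 2.46 times as much as HNF4A (1.23 to 5.26), 3.14 times as much as FOXA2 (1.01 to 9.0), 4.19 times as much as CEBPB (1.77 to 10.1) and 7.29 times as much as FOXA3 (1.54 to 27.3). In PABPC1 against IgG, 7 pairs had such an interval. NR1H4 exceeded HNF4A by 3.22 times (1.05 to 13.2) and CEBPB by 8.13 times (2.12 to 37.3). PROX1 exceeded HNF4A by 2.31 times (1.10 to 5.16) and CEBPB by 5.83 times (2.11 to 16.1), and NR1H4 and PROX1 exceeded FOXA3 by 13.0 (1.47 to 115) and 9.33 times (1.3 to 69.2). HNF4A itself exceeded CEBPB by 2.52 times in PABPC1 (1.06 to 5.88). The 2 comparisons share their IgG reads, so the same pairs standing out in both is not a second observation. Within a comparison, pairs that share a member reuse its reads, so the number of pairs is not a number of separate observations. Among the forkhead mRNAs, FOXA1 and FOXA2 did not separate in PABPC4, at a ratio of 1.25 (0.377 to 3.97).

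The PABPC4 RIP was then set against the PABPC1 RIP, which asks whether an mRNA came down more with one poly(A)-binding protein than with the other. The IgG libraries were part of the fit's filter, scaling and estimate of the spread. These RIPs differ in antibody, in the overexpressed protein and in depth at once, so those cannot be told apart. limma, fitted across the 6 libraries with median-of-ratios scaling, called 1.52% of 7977 genes higher in PABPC4 and 3.28% lower. Of the 8 members 6 had enough reads to be fitted, CEBPA and FOXA3 having too few, and 0 were called in either direction (0 with an unadjusted p under 0.05). CEBPB had the highest log2 fold, 0.43 ± 0.35 (SE, adjusted p 0.581), above 84.5% of the genes fitted. NR1H4 had 0.13 ± 0.29 (adjusted p 0.872) and PROX1 0.01 ± 0.19 (0.980). HNF4A had -0.09 ± 0.16 (adjusted p 0.840), FOXA1 -0.18 ± 0.31 (0.834) and FOXA2 -0.27 ± 0.38 (0.780). The median of the 6 was -0.04, against -0.11 over all genes fitted. For the 3 mRNAs called against IgG in PABPC4, the difference between the RIPs was smaller than its standard error on this scale, which does not show that they bind both proteins alike.

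**Figure D4:**
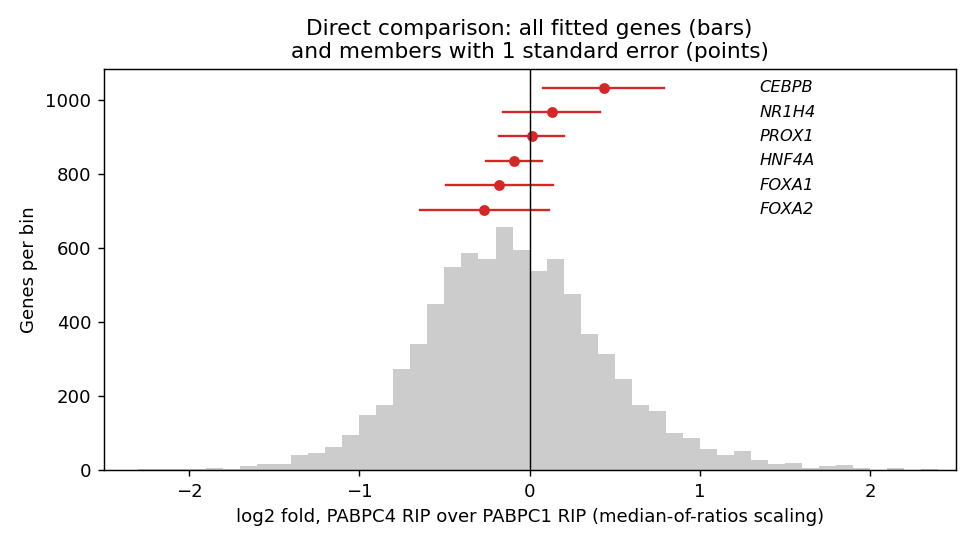
log2 fold of PABPC4 RIP over PABPC1 RIP from limma with median-of-ratios scaling: grey bars count all fitted genes per bin of 0.1 (left axis; 4 of 7977 genes lie outside the range shown), and red points with bars of 1 SE are the 6 fitted members, placed by height only to separate them. All 6 members lie within the body of the distribution, from -0.27 for FOXA2 to 0.43 for CEBPB.

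On library totals the same comparison gave higher values. Nuclear-encoded genes with recovered reads took 56.0% of the PABPC1 reads and 78.2% of the PABPC4 reads. A gene that kept its share of these reads therefore lies above 1 on this scale. The ratio of PABPC4 to PABPC1 RPM was 2.07 for CEBPB (exact 95% interval 1.25 to 3.61), 1.54 for NR1H4 (1.08 to 2.23), 1.48 for PROX1 (1.17 to 1.90) and 1.39 for HNF4A (1.13 to 1.73). It was 1.28 for both FOXA1 (0.846 to 2.0) and FOXA2 (0.756 to 2.29), 1.90 for FOXA3 (0.549 to 10.1) and 0.544 for CEBPA (0.209 to 1.52). With median-of-ratios scaling the interval included 1 for CEBPB (0.848 to 2.45), NR1H4 (0.735 to 1.52), PROX1 (0.793 to 1.29) and HNF4A (0.769 to 1.17). With library totals limma called 13.8% of genes higher in PABPC4, PROX1 among them at a log2 fold of 0.58 (adjusted p 0.0463). The other fitted members missed, with CEBPB at 0.99 (adjusted p 0.0561), HNF4A at 0.47 (0.0611) and NR1H4 at 0.71 (0.0999) the nearest. Between members, 1 of 28 pairs had an interval that excludes 1 in this comparison: CEBPB over CEBPA, at 3.79 (1.18 to 11.5). These genes encode related leucine zipper proteins, and the CEBPA side of that ratio rests on 8 PABPC1 and 13 PABPC4 reads.

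Antisense RNAs named for 4 of the genes were counted as genes of their own, and no source used here says whether counting was stranded, so reads of overlapping partners may be mixed. PROX1-AS1 had 23 PABPC1, 50 PABPC4 and 2 IgG reads, next to 84, 372 and 12 for PROX1. CEBPA-AS1 had 7, 27 and 4 reads, next to 8, 13 and 1 for CEBPA, so the antisense gene had more PABPC4 and IgG reads than its partner. HNF4A-AS1 (2, 1 and 0 reads) and CEBPB-AS1 (3, 1 and 1) were nearly absent beside their partners.

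Of 47 other transcription factors and coactivators of the hepatocyte network, 2 were called higher in the PABPC1 table (1.34% of all genes tested), 9 in the PABPC4 table (5.54% of all genes tested) and 0 lower in either. Their median log2 fold in summed reads was 0.65 in PABPC1 and 0.91 in PABPC4, against 0.54 and 0.87 over all genes. The list medians cover the 42 genes with reads on both sides. Those over all genes also required at least 10 summed reads, so the values are not like for like. HLF, a leucine zipper factor of the PAR group, had 1.51 in PABPC1 (adjusted p 0.00472) and 1.65 in PABPC4 (2.64e-06) in the authors' deposited tables. ONECUT2, a cut homeobox factor, had 2.63 (adjusted p 0.0128) and 2.94 (0.000189) in the authors' deposited tables. NFIL3, a leucine zipper repressor, was called in PABPC4 only, at 3.64 (adjusted p 0.000262) in the authors' deposited table, with 2.14 in PABPC1 (0.530). SOX9, a factor of biliary and progenitor cells, had 2.46 in PABPC4 (adjusted p 0.00104) and CEBPZ had 4.79 (0.0148) in the authors' deposited table. CEBPZ shares a name but not the leucine zipper of CEBPA and CEBPB.

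Of 27 mRNAs for products of hepatocyte factor targets, 2 were called higher in PABPC1 and 11 in PABPC4, and 0 lower, beside the same 1.34% and 5.54% of all genes tested. Their median log2 fold was 0.47 in PABPC1 and 0.82 in PABPC4, over the 25 and 26 genes with reads on both sides. No minimum of 10 summed reads applied, so these are not like for like with the medians over all genes. APOB, the protein of very-low-density lipoprotein, had 1.92 in PABPC1 and 2.62 in PABPC4, and ALB, serum albumin, 2.12 and 2.31 in the authors' deposited tables, all 4 called. SERPINA1, FGA and TF passed in PABPC4 only, at 1.86, 2.31 and 2.08 in the authors' deposited table. These blood proteins are all secreted by hepatocytes. In PABPC4 with nuclear totals SERPINA1 was at 0.965, while APOB (1.32), FGA (1.26), ALB (1.15) and TF (1.06) stayed above 1. With median-of-ratios scaling ALB (0.993), TF (0.923) and SERPINA1 (0.837) were below 1 in PABPC4, and APOB (1.14) and FGA (1.09) above. The difference between the RIPs was not tested for these lists. Of 11 bile acid genes downstream of NR1H4, 7 were tested in PABPC1 and 8 in PABPC4, and 0 were called. Over the 5 of them with reads on both sides the median log2 fold was -1.32 in PABPC1 and -0.03 in PABPC4. These medians are not comparable with those over all genes, which required at least 10 summed reads. The whole list held 44 PABPC1 and 212 PABPC4 reads, and needing an IgG read at such counts favours low folds. ABCB11, CYP7A1 and FGF19 had 0 reads in both RIPs. NR0B2, the corepressor induced by the farnesoid X receptor, had 0.879 and 1.02, and ABCB4, the canalicular phospholipid transporter, 3.01 and 4.54 in the authors' deposited tables, neither past the threshold. With nuclear totals, the PABPC4 medians of the network and target lists were -0.07 and -0.16, beside -0.11 over all genes. Only the last required at least 10 summed reads.

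HNF4A had the most IgG reads of the members, and its pair of folds was set against the 294 genes with at least as many. The nearest were YARS, a tRNA synthetase, with 1.18 and 1.72 in the authors' deposited tables, NFE2L1, a leucine zipper factor, with 1.25 and 1.64, and RPL13A, a ribosomal protein, with 1.18 and 1.77. Their Euclidean distances from HNF4A in log2 folds were 0.0485, 0.0609 and 0.0762, over 2 comparisons that share the IgG libraries. All 3 were called in PABPC4 and not in PABPC1, as HNF4A was. This largely follows from choosing genes with like folds and at least as many IgG reads.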

How the data were processed

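Per the labels' protocols, RNA was pulled down from HepG2 lysate on antibody-coated beads and libraries used random primers. Tools listed in the submitters' processing notes, without roles, are featureCounts 2.0.1, STAR 2.7.10a and Bowtie2 2.4.1, beside the builds hg38 and GRCh38. The authors deposited, per the file headers, a linear ratio (fold) of RIP over IgG, a p-value and a Benjamini-Hochberg adjusted p-value per gene. The deposited values equal a Yates-corrected chi-square test on summed reads, and a ratio of mean RPKM with 0.005 added to the IgG mean. Whole reads per library were recovered from them for 15093 of 22607 genes with a p, including all 8 members, and sums only for 7510. Deposited folds were rebuilt within a relative error of 5.1e-15. In simulated data, 13555 of 13555 recovered library sets were right.

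The main tests were the deposited adjusted p under 0.05 and, for PABPC4 RIP against PABPC1 RIP, limma 3.58.1 (voom, R 4.3.3) on the 7977 genes that reached 10 reads in 2 or more libraries, with 3 residual and 35.4 prior degrees of freedom. In simulated reads for that comparison over 8093 genes, limma recovered 10 of 92 genes changed by 1 and 54 of 92 changed by 2 on the log2 scale, with 10 false calls. Folds printed for single genes against IgG are the deposited ones unless a scaling or a left-out library is named. In those cases they are ratios of summed reads, except in limma. Intervals are exact (Clopper-Pearson on summed reads) and cover counting error only. The members and gene lists were chosen with earlier results of these data known. All 8 members are named; of each list at most 5 genes, by the smallest deposited adjusted p, or the 2 with most reads. Alternatives were nuclear totals, median-of-ratios size factors, Fisher's exact test, a minimum of 10 summed reads, leaving out each library, no filter, RIP libraries only and, added after seeing the data, limma against IgG. MALAT1, RN7SL2, MT-RNR1 and MT-RNR2 were not recovered and stay out of recomputed tests and of the nuclear totals.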

Additional observations from a re-analysis of the deposited data

How the results depend on the processing

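PABPC1 calls among members went from 1 to 0 with nuclear totals, with median-of-ratios scaling and in limma, and ranged from 0 to 2 with 1 library left out; PABPC4 calls went from 3 to 0 with nuclear totals and with median-of-ratios scaling, and ranged from 1 to 3 with 1 library left out. Fisher's exact test and the minimum of 10 summed reads kept these counts. They are counts of calls higher than IgG, from the chi-square test except where limma is named. In limma with median-of-ratios scaling CEBPB was called lower in PABPC4. The members' median log2 fold went from 0.32 to -0.17 (nuclear totals) and -0.30 (median-of-ratios) for PABPC1, with 0.22 (without PABPC1 library B) to 0.56 (without PABPC1 library A) over the libraries left out, and from 0.74 to -0.23 and -0.44 for PABPC4, where it ranged from 0.43 to 0.79 with 1 library left out. In the direct comparison, library totals raised the calls from 0 to 1 and the median from -0.04 to 0.53. In summed reads against IgG the scalings shift all members alike. Changes of single members from their deposited folds differ, since those are ratios of library means. For the other changes the cause was not tested.

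Direction changed for these log2 folds. In PABPC1 with nuclear totals HNF4A was at -0.22, FOXA1 at -0.13 and FOXA2 at -0.45, and with median-of-ratios scaling at -0.34, -0.25 and -0.58. FOXA2 was also at -0.10 without PABPC1 library A and -0.021 in limma; with 1 library left out it ranged from -0.24 (IgG B) to 0.58, and FOXA1 from -0.20 (PABPC1 B) to 0.79. In PABPC4 with nuclear totals HNF4A was at -0.22, FOXA1 at -0.25, FOXA2 at -0.57, CEBPA at -0.17 and CEBPB at -0.98, and with median-of-ratios scaling at -0.42, -0.45, -0.78, -0.38 and -1.19. CEBPB was also at -0.071 in limma and -0.03 without PABPC4 library B, and ranged from -0.20 (IgG B left out) to 0.31. In summed reads its PABPC4 fold with all libraries was already below 1, at 0.994, against the deposited 1.02. Its sign without PABPC4 library B or IgG library B was therefore that of all libraries in summed reads. In the direct comparison, library totals gave HNF4A 0.47, FOXA1 0.40 and FOXA2 0.29. With 1 library left out, there, NR1H4 ranged from -0.41 (PABPC1 A) to 0.65, FOXA1 from -0.60 to 0.22 (PABPC1 B) and PROX1 from -0.21 (PABPC1 A) to 0.20, with -0.01 and -0.0014 without PABPC4 library A and B. Of the other values of single members under an alternative, 154 kept direction and side of the threshold, 14 lost a call and 2 gained one. Limma against IgG entered these counts with library totals only. The call of CEBPB as lower in PABPC4, in limma with median-of-ratios scaling, is therefore not among them.

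No paired analysis was possible because the deposited tables do not say which recovered library carries which replicate number. The 227265 IgG reads limit both comparisons with IgG: CEBPA, FOXA3, NR1H4 and PROX1 had 1, 4, 4 and 12 IgG reads.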
